A study of Mus musculus with 4 samples.

Results

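The genes described here are 10 components of the Notch pathway, namely the receptors *Notch1*, *Notch2* and *Notch3*, the ligands *Jag1*, *Jag2* and *Dll1*, the DNA-binding effector *Rbpj*, and the target repressors *Hes1*, *Hes5* and *Hey1*. They were chosen by symbol and matched through their Ensembl identifiers to rows of the normalized expression table, in which all 10 were found among 14924 genes. RNA-seq had been performed on whole lenses of 1-month-old mice with a body-wide null mutation of *S100A4*, a calcium-binding protein of lens fibers, and on lenses of wild type (WT) littermates, both on a C57BL/6J background. Each group had 2 libraries, and each library came from a pool of 6 to 12 lenses. The study used males and females, but how each pool was made up was not given in the sources used here, and the null mutation was present in every cell of the animal, so a change in the lens cannot be told apart from one that began in another tissue. The libraries held 81602367 and 74108017 counted reads in *S100A4*-/- lenses, and 70253985 and 68038158 in WT lenses. A normalized read count below is the reads of a gene divided by a single size factor per library, and it is not divided by gene length. *S100a4* itself checked the labels, with 14.6 and 18.2 normalized reads in the null libraries against 14419.8 and 14385 in the WT libraries. The lens markers were present in both groups, with *Cryaa*, the alpha-A crystallin, at 11948842 and 13289361 normalized reads in null and 13062948 and 13333352 in WT libraries.

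Notch receptors are cell surface proteins that are cut when a ligand on a neighboring cell binds them. The released intracellular part enters the nucleus, joins the DNA-binding protein RBPJ and a Mastermind coactivator, and switches on genes for repressors of the HES and HEY families. In the lens, Jag1 and Notch signaling are known for keeping epithelial cells dividing and for the orderly start of fiber differentiation, whereas in the retina the same pathway holds progenitors back from becoming neurons and favors glia. Notch3 is best known from smooth muscle cells and pericytes of blood vessels.

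Of the 10 genes, *Notch3* and *Dll1* were higher in *S100A4*-/- lenses, each by about the same ratio, and no gene was lower. The sequences upstream of these genes are shown first because both were higher in the null lenses, together with that of *Hes5*, a target repressor whose upstream sequence held the RBPJ core motif. Each run is the 250 bases before a RefSeq transcription start on GRCm38.p6, written 5′ to 3′ on the strand of the gene, with matches to the motif in capitals. The motif searched was TGGGAA on either strand, so that TTCCCA also counts as a match, and no other motif was searched. The run of *Hes5* lay at chr4:154960673-154960922 on the plus strand, that of *Notch3* at chr17:32166891-32167140 on the minus strand and that of *Dll1*, at the outer of its 2 starts, at chr17:15376933-15377182 on the minus strand.
Hes5: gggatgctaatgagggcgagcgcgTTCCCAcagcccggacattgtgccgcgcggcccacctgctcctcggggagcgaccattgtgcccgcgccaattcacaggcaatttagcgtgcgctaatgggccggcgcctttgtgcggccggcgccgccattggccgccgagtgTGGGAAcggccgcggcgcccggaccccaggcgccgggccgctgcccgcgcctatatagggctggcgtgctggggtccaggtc
Notch3: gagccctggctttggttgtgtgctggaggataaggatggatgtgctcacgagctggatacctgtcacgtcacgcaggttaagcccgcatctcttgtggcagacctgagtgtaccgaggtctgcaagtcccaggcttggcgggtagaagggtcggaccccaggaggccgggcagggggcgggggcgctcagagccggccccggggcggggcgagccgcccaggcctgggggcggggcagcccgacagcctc
Dll1: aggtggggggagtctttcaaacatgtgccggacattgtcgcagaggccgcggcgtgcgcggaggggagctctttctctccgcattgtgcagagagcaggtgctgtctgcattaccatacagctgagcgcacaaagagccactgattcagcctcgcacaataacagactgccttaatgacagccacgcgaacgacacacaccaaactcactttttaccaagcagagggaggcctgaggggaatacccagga

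The *Hes5* run held 2 matches, which began 226 and 82 bases before the start. Neither the *Notch3* run nor the *Dll1* run held one. RefSeq sequences were matched for 8 of the 10 genes, with 10 starts in all, so that *Hes1* and *Hey1* were not searched, and 2 of the 8 genes had a match, *Hes5* and *Rbpj*. The *Rbpj* matches began 149 and 65 bases before one start, and the second of these also lay before the other start. Across 32851 upstream windows of the same length, 21.6% held at least 1 match and 2.77% held 2 or more. The windows of *Hes5*, *Notch3* and *Dll1* were 71.6%, 68.8% and 56.0% G and C, beside a median of 52.4% over all windows. A match of 6 letters describes the sequence only and is not a measured binding site.

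The first question was how much each receptor was expressed and whether its level differed between the genotypes. *Notch3* (ENSMUSG00000038146, chromosome 17, 32120820 to 32166852, minus strand, GRCm38) had 224 and 269.6 normalized reads in null lenses and 124 and 113 in WT. Both null libraries were above both WT libraries, and the lower null value was 1.81 times the higher WT value. The means were 247 ± 32.0 (SD, n = 2) in null and 119 ± 8.12 (SD, n = 2) in WT lenses. On the log2(value + 1) scale *Notch3* was higher by 1.05 with a standard error of 0.16 and a 95% interval of 0.73 to 1.37, with an adjusted p of 6.43e-06 in the limma test over 14780 genes. The value rested on 262 and 266 reads in null and 119 and 103 reads in WT libraries. The call was lost when null library 2 was left out, with a log2 difference of 0.92 and an adjusted p of 0.0631 in limma, and without WT library 2 the difference was 0.98, just under the 2-fold limit.

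*Notch2* (ENSMUSG00000027878, chromosome 3, 98013527 to 98150361, plus strand), the most abundant receptor, had 2331 and 2169 normalized reads in null and 2024 and 2137 in WT libraries. The null libraries were the higher ones, but the gap between the groups was smaller than the gap between the libraries of either group. The log2 difference was 0.11 with a 95% interval of −0.01 to 0.24, and the adjusted p was 0.338 in limma. *Notch1* (ENSMUSG00000026923, chromosome 2, 26457903 to 26516663, minus strand) had 1091 and 949.6 normalized reads in null and 949 and 958 in WT libraries. The groups overlapped, with null library 1 alone above the rest, and the log2 difference was 0.09 with a 95% interval of −0.06 to 0.25 (adjusted p = 0.585, limma). The intervals of *Notch1* and *Notch2* thus lay below a doubling.

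A level can be compared between genes only per length, so normalized reads were divided by the kilobases of annotated exon of each gene. Per kilobase of exon, WT lenses held 193 ± 7.46 of *Notch2*, 67.0 ± 0.44 of *Notch1* and 14.7 ± 1.00 of *Notch3* (SD, n = 2 each). *Notch3* made up 5.69% and 4.99% of the summed receptor level of the 3 genes in the WT libraries, and 8.65% and 11.1% in the null libraries. *Notch2* remained the largest share in every library, at 69.6% and 70.9% in WT and 67.4% and 66.8% in null. The difference in level of *Notch3* between the groups, 15.9 per kilobase of exon, was close in size to that of *Notch2*, 15.7. Their ratios of null to WT were 2.08 and 1.08. The *Notch2* difference did not pass the test (adjusted p = 0.338, limma). On the log2 scale the *Notch2* difference was 0.06 without null library 1 and 0.16 without null library 2.

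**Figure D1:**
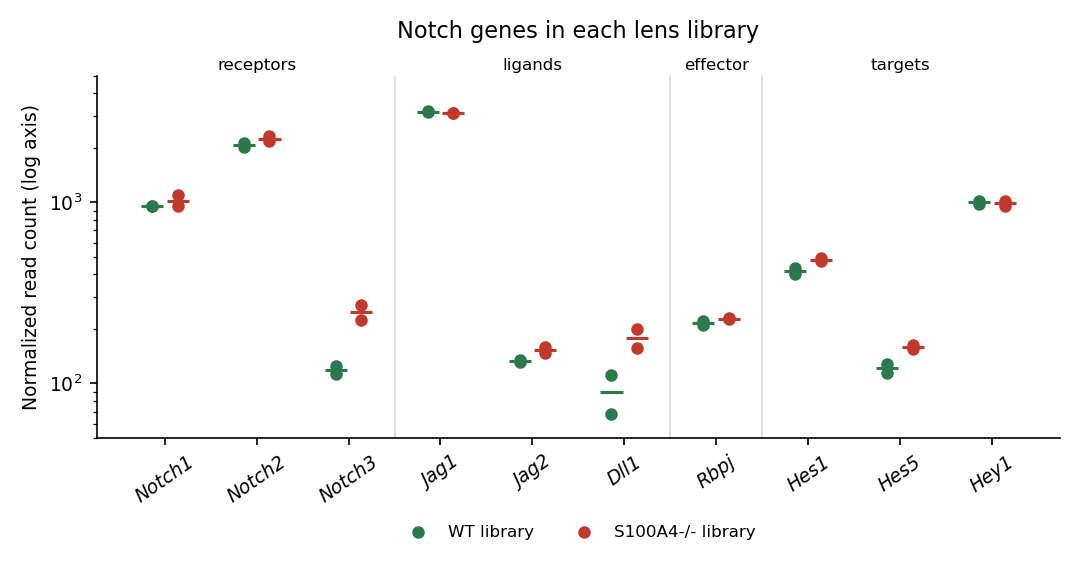
Normalized read counts (log axis) of the 10 Notch genes in each of the 4 libraries, with points for libraries, bars for group means, green for WT and red for *S100A4*-/-. The null points of *Notch3*, 224 and 269.6, and of *Dll1*, 157 and 199, lie above their WT points, while those of *Notch1* and *Hey1* overlap with WT.

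Among the ligands, *Dll1* (ENSMUSG00000014773, chromosome 17, 15367354 to 15376872, minus strand), a Delta ligand known from neural progenitors, had 157 and 199 normalized reads in null and 67.9 and 112 in WT libraries. The groups did not overlap, but the WT libraries differed from each other about as much as the nearer libraries of the 2 groups did. The means were 178 ± 29.6 (SD, n = 2) and 89.8 ± 31.0 (SD, n = 2), and the log2 difference was 1.01 with a standard error of 0.20 and a 95% interval of 0.60 to 1.42 (adjusted p = 0.000559, limma). The reads behind these values were 183 and 196 in null and 65 and 102 in WT libraries. The *Dll1* difference lay at the 2-fold limit, and edgeR and DESeq2 put it at 0.99 with adjusted p-values of 0.000522 and 0.0145. Leaving out a library gave log2 differences between 0.66 without WT library 1 and 1.37 without WT library 2, with adjusted p-values in limma of 0.129 without null library 1 and 0.267 without null library 2.

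*Jag1* (ENSMUSG00000027276, chromosome 2, 137081456 to 137116644, minus strand), the ligand best known in the lens, had 3115 and 3132 normalized reads in null and 3139.8 and 3191 in WT libraries. All 4 libraries lay within a narrow band, with the null libraries just below the WT libraries. The log2 difference was −0.02 with a 95% interval of −0.13 to 0.09 (adjusted p = 0.905, limma), which was the narrowest interval of the 10 genes. *Jag2* (ENSMUSG00000002799, chromosome 12, 112907819 to 112929776, minus strand) had 159 and 147 normalized reads in null and 135 and 131 in WT libraries, with a log2 difference of 0.20 and a 95% interval of −0.14 to 0.54 (adjusted p = 0.598, limma). Its null libraries were the higher ones, but the difference did not pass the test. Per kilobase of exon, *Jag1* made up 93.8% and 92.4% of the 3 ligands in WT libraries and 89.9% and 88.7% in null libraries. The share of *Dll1* was 2.80% and 4.46% in WT and 6.25% and 7.77% in null, and that of *Jag2* lay between 3.18% and 3.85% in all 4 libraries.

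**Figure D2:**
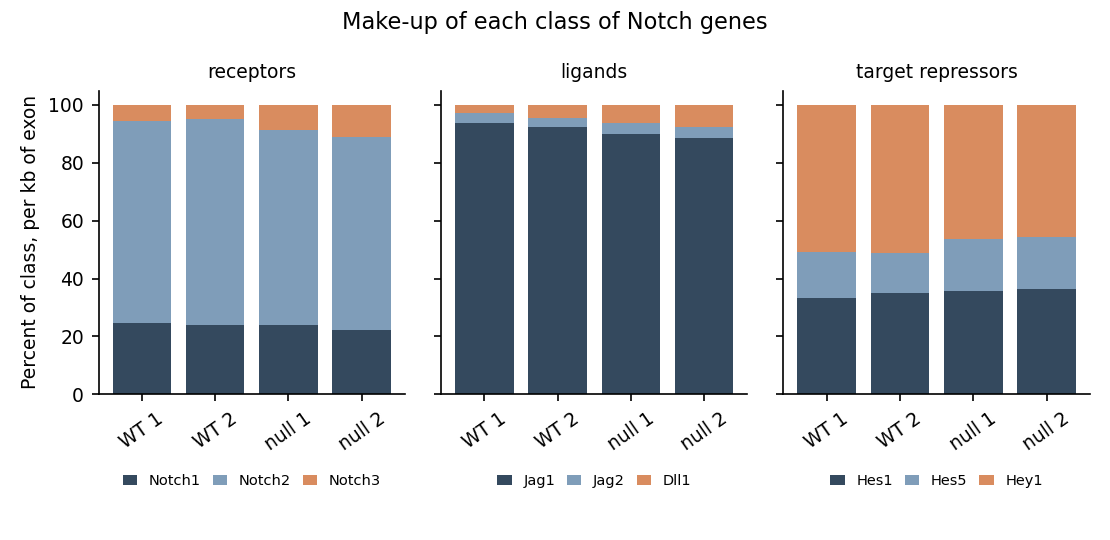
Stacked bars give each gene's percent of the summed normalized reads per kilobase of exon of its class (receptors, ligands, target repressors) in each library. *Notch2*, *Jag1* and *Hey1* hold the largest share of their classes in every library, and the shares of *Notch3* and *Dll1* are larger in both null libraries than in both WT libraries.

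*Rbpj* (ENSMUSG00000039191, chromosome 5, 53466152 to 53657362, plus strand), which encodes the DNA-binding protein that carries the Notch signal to its targets, had 229.5 and 226 normalized reads in null and 222 and 210.2 in WT libraries. The 4 values were close, and the log2 difference was 0.07 with a 95% interval of −0.20 to 0.35 (adjusted p = 0.845, limma).

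The target repressors are the transcripts that the pathway is known to switch on. *Hes5* (ENSMUSG00000048001, chromosome 4, 154960923 to 154962371, plus strand) had 163 and 154 normalized reads in null and 128 and 115 in WT libraries. Both null libraries were above both WT libraries, and the means, 158 ± 6.12 and 122 ± 9.52 (SD, n = 2 each), differed by 30.1%. The log2 difference was 0.38 with a 95% interval of 0.03 to 0.73, and it did not pass the test over all genes, with an unadjusted p of 0.0343 and an adjusted p of 0.226 in limma. *Hes1* (ENSMUSG00000022528, chromosome 16, 30064384 to 30067796, plus strand) had 491 and 473 normalized reads in null and 401 and 436 in WT libraries. Its groups did not overlap either, and the log2 difference of 0.20, with a 95% interval of 0.00 to 0.41, did not pass (adjusted p = 0.282, limma). *Hey1* (ENSMUSG00000040289, chromosome 3, 8663359 to 8667256, minus strand) had 1022 and 949.6 normalized reads in null and 978 and 1020.4 in WT libraries. These groups overlapped, with a log2 difference of −0.02 and a 95% interval of −0.17 to 0.13 (adjusted p = 0.929, limma). None of the 3 targets reached a doubling within its interval. Of the summed level of the 3 targets per kilobase of exon, *Hes5* held 15.95% and 13.8% in WT and 17.7% and 17.8% in null libraries.

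**Figure D3:**
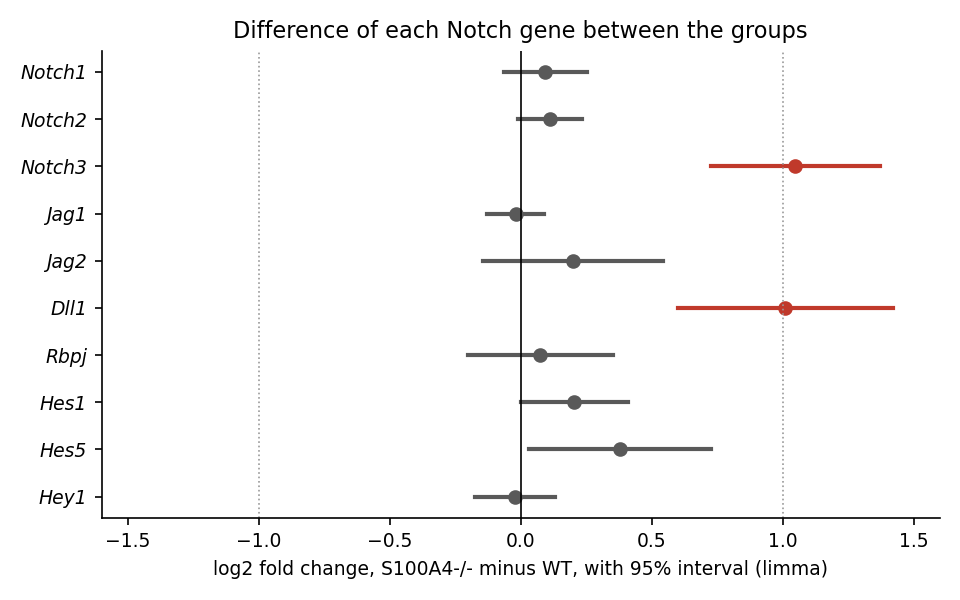
Log2 fold change of each Notch gene in *S100A4*-/- against WT (points) with its 95% interval from limma (lines), with dotted lines at a 2-fold change either way and red for genes past the threshold. *Notch3* at 1.05 and *Dll1* at 1.01 sit at the upper dotted line, and the intervals of the other 8 genes end below it.

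Counted together, 2 of the 10 genes passed a 2-fold change with an adjusted p of at most 0.05 in limma, both higher in null lenses, and 8 did not pass. Over all 14780 genes tested, 3.65% were higher by the same rule and 0.0744% lower. By adjusted p alone the count of the 10 was again 2 higher and 0 lower, beside 5.62% higher and 1.33% lower over all genes. In 7 of the 10 genes both null libraries lay above both WT libraries, in 1, *Jag1*, below, and in 2 the groups overlapped, whereas 23.7% of all genes tested lay above and 23.2% below. The median log2 difference of the 10 was 0.16, beside −0.0052 over all genes tested. All 10 genes had at least 10 normalized reads in every library, so none was tested on the strength of 1 group alone. Among the 11340 genes with a mean of at least 50 normalized reads, as all 10 had, 2.48% were higher by the 2-fold rule. With DESeq2, which called *Notch3* alone of the 10, 2.85% of all genes were higher by that rule, and with edgeR, which also called *Notch3* alone, 3.74% were.

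In WT lenses the 10 genes spread over a wide range per kilobase of exon. The order ran from *Jag1* at 543 through *Hey1* at 306, *Hes1* at 205, *Notch2* at 193, *Hes5* at 89.3, *Notch1* at 67.0, *Dll1* at 21.3, *Jag2* at 19.1 and *Rbpj* at 17.0 to *Notch3* at 14.7. *Hes1* and *Notch2* overlapped between WT libraries, as did *Dll1* and *Jag2*, and the other neighbors did not. In null lenses *Notch3*, at 30.5, stood in the 8th place, above *Jag2* at 21.98 and *Rbpj* at 17.9. The order depends on which exons are counted. With the longest coding transcript in place of all exons, a length chosen after the data were seen, *Notch1* came 5th, *Hes5* 6th, *Rbpj* 7th and *Dll1* 9th in WT lenses, and the other places did not change.

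Exons of other genes overlap some of these genes. The authors made strand-specific libraries, but whether the strand was used in counting is not given in the sources used here. *Dll1* shares 867 bases of exon with A930024N18Rik, which had 2.57 and 13.2 normalized reads in null and 8.35 and 1.09 in WT libraries, far below *Dll1*. *Notch1* shares 1068 bases with 0610009E02Rik, which had 61.7 and 48.6 in null and 55.3 and 40.5 in WT libraries, and 414 bases with Gm13568. *Notch3* and *Hes5* share 488 and 433 bases with Gm17276 and Gm20421. *Notch2* shares 541 bases with Gm42820 on its own strand, which strand cannot separate. Gm13568, Gm17276, Gm20421 and Gm42820 were not analysed here, so the reads of these Notch genes are uncertain where the exons overlap.

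The rest of the pathway was described from a list of 67 further genes, of which 60 were tested and 7, *Dll4*, *Dlk1*, *Dlk2*, *Mfng*, *Rbpjl*, *Hes2* and *Hes3*, were not analysed here. By the 2-fold rule 1 of the 60 was higher, 0 were lower and 59 did not pass, beside 3.65% higher over all genes. The one gene was *Notch4*, a receptor known from blood vessel endothelium, with 39.4 and 38.5 normalized reads in null and 16.7 and 14.2 in WT libraries. The groups lay far apart for so low a gene, with a log2 difference of 1.28, a standard error of 0.40 and an adjusted p of 0.0457 in limma. That call was not made by edgeR (adjusted p = 0.0545) or DESeq2 (adjusted p = 0.239), nor without null library 1, null library 2 or WT library 2. The median log2 difference of the 60 was 0.04. Both null libraries lay above both WT libraries in 19 of the 60 genes, below in 6 and overlapped in 35, beside 23.7% above and 23.2% below over all genes tested. *Dll3* and *Hes7* were kept for the test only through a null library.

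By adjusted p alone, 3 of the 60 were higher and 1 was lower, shares near the 5.62% and 1.33% of all genes tested, and *Ctbp2* and *Dner* are named here after their values were seen. *Ctbp2*, a corepressor that is also the source of the ribbon protein RIBEYE of photoreceptor synapses, had 2006 and 1934 normalized reads in null and 1607 and 1635 in WT libraries, a log2 difference of 0.28 (adjusted p = 0.00177, limma). *Dner*, a Delta-like membrane protein, was lower, with 2169 and 2494 against 2765 and 2704, a log2 difference of −0.23 (adjusted p = 0.0107, limma). Both differences were well below 2-fold, and both calls were lost without null library 1. *Ctbp2* passed at this rule with DESeq2 (adjusted p = 0.00824), and *Dner* did not (adjusted p = 0.0657), nor did it pass with equal totals, with quantile normalization or without WT library 1.

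By role, none of the 10 proteases passed either rule. These include *Adam10* and *Adam17*, which cut the receptor outside the membrane, and the gamma-secretase subunits, which cut it within, and *Adam10* had 5199.8 and 5044 normalized reads in null and 5402 and 5160.3 in WT libraries. The median log2 difference of the proteases was −0.06. None of the 8 coactivators passed, with a median of 0.05. Both null libraries lay above both WT libraries in 4 of them and below in 1, *Kat2b*, beside 23.7% and 23.2% of all genes tested. *Maml1*, a Mastermind protein, had 590.0 and 589 against 549 and 564, and *Kat2b* had 2382 and 2284 against 2499 and 2580. None of the 9 glycosylation and ligand endocytosis genes tested passed, with a median of 0.04. *Lfng*, the Fringe enzyme that adds sugars to the receptor, had 3670.3 and 3597 against 3664 and 3722, and *Neurl1a*, a ubiquitin ligase for ligands, had 42.0 and 36.5 against 20.9 and 15.3 (adjusted p = 0.0977, limma). Of the 12 corepressors tested, none passed the 2-fold rule, 2 were higher by adjusted p alone, *Ctbp2* among them, and the median was 0.04. None of the 10 regulators of endocytosis and turnover passed. The null libraries were above the WT libraries in 7 of them, beside 23.7% of all genes tested, and the median was 0.11. *Numb*, which opposes Notch at the membrane, had 269.8 and 248 against 205 and 222 (adjusted p = 0.270, limma). None of the 8 other target genes tested passed, with a median of 0.11. Both null libraries lay above both WT libraries in 1 of them, *Nrarp*, and below in 1, *Hey2*, beside 23.7% and 23.2% of all genes tested. *Nrarp*, a direct feedback target, had 27.4 and 34.5 against 25.1 and 26.3, and *Hey2* had 26.5 and 20.3 against 36.5 and 28.5.

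**Figure D4:**
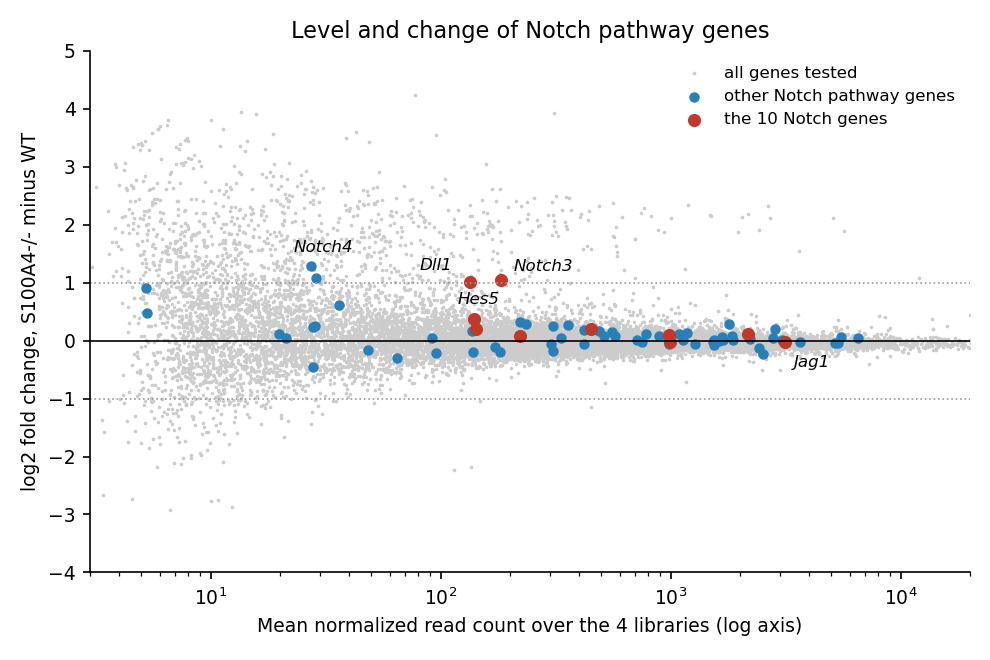
Mean normalized read count over the 4 libraries (log axis) against the log2 fold change in *S100A4*-/- against WT, for all genes tested that fall within the axes (grey), 60 other Notch pathway genes (blue) and the 10 Notch genes (red), with dotted lines at a 2-fold change. *Notch3*, *Dll1*, *Notch4* and *Neurl1a* stand at or above the upper dotted line, and most other pathway genes lie near 0. *Neurl1a*, at 1.09, did not pass the test (adjusted p = 0.0977, limma).

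The proneural transcription factors, which Notch targets are known to hold down, were set beside the pathway. Of 6 listed, 4 were tested, 2 were higher, 0 lower and 2 did not pass, beside 3.65% higher and 0.0744% lower over all genes tested, and *Atoh7* and *Neurog2* were not analysed here. One of the higher genes, *Neurod4*, was kept for the test only through the null libraries. *Neurod1*, which is active in photoreceptor precursors and photoreceptors, had 93.3 and 109 normalized reads in null and 25.1 and 23.0 in WT libraries, a log2 difference of 2.03 (adjusted p = 1.70e-06, limma). *Neurod4* had 23.1 and 10.1 in null and 3.13 and 0 in WT libraries, where it was at or under the floor of 3 reads, and it passed in limma (adjusted p = 0.0386) and not in DESeq2 (adjusted p = 0.112). *Insm1* had 156 and 181 against 153 and 174, and its groups overlapped. In whole lenses, fewer cells of a type and less RNA per cell cannot be told apart, and this holds for every gene above.

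The markers of other eye tissues were compared by the same 2-fold rule, by which 3.65% of all genes tested were higher and 0.0744% lower. All 11 rod photoreceptor markers were higher in null lenses, and their summed normalized reads were 10247 and 10073 in null and 2597 and 2770.1 in WT libraries, a ratio of 3.79, with *Gnat1*, the rod transducin, the most abundant. Of the 7 pigment cell markers, 6 were higher, with sums of 1508 and 1518 against 294 and 399.6, and *Dct*, a melanin enzyme, the most abundant. Of 12 bipolar, amacrine and ganglion cell markers 7 were higher, with sums of 4569 and 4491 against 2896 and 2993, *Tfap2a* the most abundant and *Gad2* at 0 in WT library 1. *Gad2* and the pigment gene *Mlana*, both among the higher genes of their lists, were kept for the test only through the null libraries. Of 10 Müller glia markers 4 were higher, *Glul*, *Rlbp1*, *Slc1a3* and *Lhx2*, while the sums of 167199 and 178261 against 172515 and 173779 were mostly *Vim* and *Dkk3*, which the lens also expresses at a high level. *Rlbp1* stands in the pigment list too.

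Vascular and immune markers bear on the genes best known from vessels. Their counts stand beside 3.65% higher and 0.0744% lower over all genes tested by the 2-fold rule. Of 7 endothelial markers 2 were higher, *Kdr*, kept for the test only through the null libraries, and *Flt1*, with sums of 448 and 454 in null and 170.2 and 209 in WT libraries and *Flt1* the most abundant, while *Pecam1*, a defining marker, had 23.1 and 24.3 against 18.8 and 24.1. Among the endothelial genes that did not pass, *Tie1* had 25.7 and 17.2 against 11.5 and 1.09 and *Cldn5* 23.1 and 32.4 against 10.4 and 23.0, both without overlap, and *Cdh5* had 14.6 and 35.5 against 9.40 and 20.8. *Tek*, which did not pass either, had 46.2 and 44.6 against 49.1 and 59.1, with both null libraries below both WT libraries. In all, 4 of the 7 lay apart and higher and 1 apart and lower, beside 23.7% and 23.2% of all genes. Of 6 pericyte and smooth muscle markers 2 were higher, *Cspg4* and *Myh11*, the latter kept only through the null libraries, with sums of 19299.7 and 21037 against 19244 and 19710.4 that were mostly *Acta2*. *Myh11*, which defines smooth muscle, had 30.0 and 38.5 normalized reads in null and 8.35 and 6.57 in WT libraries. *Rgs5*, a pericyte marker, had 212 and 176 against 105 and 113, a log2 difference of 0.82 that passed by adjusted p alone (adjusted p = 0.000891, limma), and *Pdgfrb* had 2268 and 2294 against 2307 and 2347. Of 6 macrophage and microglia markers 4 were higher, with sums of 293 and 247 against 103 and 86.5 and *Csf1r* the most abundant. With DESeq2, 1 of these 4 macrophage genes, *Csf1r*, and 1 of the 2 pericyte and smooth muscle genes, *Myh11*, passed the threshold, whereas edgeR called 4 and 2. None of the 3 cornea and iris stroma markers tested passed. With *Krt12*, which was too low to test and at 0 in WT library 2, their sums were 62.5 and 47.6 against 35.5 and 31.8, and *Col1a1* was the most abundant. The listed markers *Best1*, *Emcn*, *Kcnj8*, *Ptprc*, *Aif1*, *Kera* and *Lum* were not analysed here. The part of these other cell types in the values of *Notch3*, *Dll1* and *Notch4* was not tested.

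None of the lens markers passed the threshold. None of 11 fiber markers passed, with a median log2 difference of −0.04 and *Cryaa* the most abundant. Both null libraries lay below both WT libraries in 4 of the 11 and above in 1, beside 23.2% and 23.7% of all genes tested. *Mip*, with a log2 difference of −0.12, passed by adjusted p alone in DESeq2 (0.0352) and edgeR (0.0290), not in limma (0.124). None of 4 epithelial markers passed, with sums of 17816 and 17682 in null and 17313 and 17619 in WT libraries and *Pax6* the most abundant. Of these 4, 2 lay apart and higher and 1 apart and lower. *Jag1*, *Hey1*, *Rbpj*, *Notch1* and *Notch2*, with log2 differences between −0.02 and 0.11, lay in the range of the lens markers, whose single values ran from −0.16 to 0.15. *Jag2*, *Hes1* and *Hes5*, at 0.20, 0.20 and 0.38, lay above it without passing the test, and *Notch3* and *Dll1* lay farther above it. The median of the rod markers was 1.92 and the smallest of them 1.46, which is above both *Notch3* and *Dll1*.

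**Figure D5:**
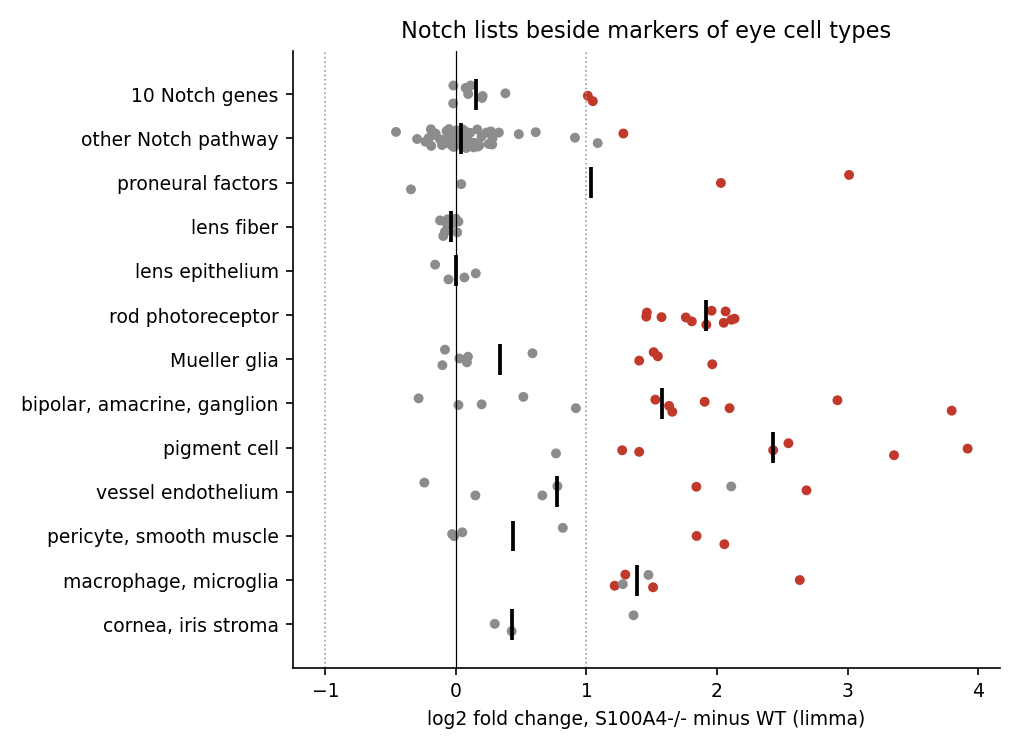
Log2 fold change in *S100A4*-/- against WT for each gene tested (points) of the Notch lists, the proneural factors and the marker lists of eye cell types, with black bars for list medians, red for genes past the threshold and dotted lines at a 2-fold change. The median of the other pathway genes, 0.04, lies near those of the lens lists, and that of the 10 Notch genes, 0.16, lies above them. The rod and pigment lists lie farther to the right.

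*Notch3* had the largest log2 difference of the 10, and the genes with the profile most like its own over the 4 libraries were sought among 3371 genes of similar mean level, by the distance between log2(value + 1) profiles centered on their means. The nearest was *Atp2b4*, a plasma membrane calcium pump, at a distance of 0.15, with 146 and 196 normalized reads in null and 80.4 and 71.2 in WT libraries. The next was *Eif2s3y*, a gene of the Y chromosome, at 0.21, with 354 and 375 in null and 207 and 187 in WT libraries. The third was *Grb10*, an adaptor protein of insulin signaling, at 0.21, with 137 and 141 against 75.2 and 71.2. With 4 libraries in 2 groups, such a likeness describes little more than a similar difference between the groups.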

How the data were processed

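RNA was measured by strand-specific, single-end mRNA-seq of polyadenylated RNA in 4 libraries. According to the methods and the processing notes, adapters and weak bases were removed with Trim Galore, STAR placed the reads on the mouse genome and transcriptome GRCm38v73 (mm10), and HTSeq gave the count of uniquely placed reads of each gene. The authors dropped genes that never reached 10 reads and scaled the rest with DESeq2. Versions of these tools are not given in the sources used here. The deposited signal is thus a count divided by the size factor of its library. Divided by the value of 1 read, 100% of the values of each library came out whole, within 0.01 of a read (0.856 and 1.01 in null, 1.04 and 1.09 in WT), so reads could be recovered. The floor of 3 reads covers counting error only. The labels name separate samples but not separate animals, so p-values refer to pools and not to animals. There were 0 columns without a sample.

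Values were compared as log2(value + 1) with limma 3.58.1 (lmFit, eBayes with trend) in R 4.3.3 for 14780 genes that reached a value of 10 somewhere, while 144 were not tested. Fold changes on this scale understate the change of low genes. With 2 libraries per group, the fit with trend took the spread of each gene in large part from genes of similar level. Standard errors, intervals and p-values of limma rest on that borrowed spread. Without the trend the adjusted p in limma was 0.0949 for *Notch3* and 0.329 for *Dll1*. P-values were adjusted by Benjamini and Hochberg over all genes tested, and a call needed both a 2-fold difference and an adjusted p no higher than 0.05. edgeR 4.0.16 and DESeq2 1.42.0 on the recovered reads, other pseudocounts, filters and scalings, and fits without each library were alternatives. edgeR called 564 genes and DESeq2 427, beside 550 in limma. On simulated counts of this comparison, limma called 197 of 200 changed genes and 2 others among 14395 genes. How often limma calls a difference close to the 2-fold limit, where *Notch3* and *Dll1* lie, was not tested. Calls of the marker and proneural lists by both count tests were added after the data were seen. Exon lengths and positions came from GENCODE M21, which is not the annotation the authors counted with, and upstream sequences from RefSeq on GRCm38.p6. The groups came from the labels. The members, gene lists and tests were chosen with earlier results of these data known. Named were all 10 members, listed genes that passed the call, the most abundant gene of each marker list and the 3 genes nearest to the member with the largest change, and other names were chosen as examples after their values were seen. Single values of some listed genes are not reported here.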

Additional observations from a re-analysis of the deposited data

How the results depend on the processing

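Of the 10 Notch genes, 2 passed the threshold, and this became 1, *Notch3*, with a pseudocount of 5, with edgeR and with DESeq2, and 0 with quantile normalization, with limma without the trend and with limma's treat. Leaving out each library gave 0 to 1, namely *Notch3* without null library 1 or WT library 1, *Dll1* without WT library 2, and no gene without null library 2. By adjusted p alone the 2 became 0 without the trend and 0 to 2 with a library left out. *Notch3* kept its direction in all 15 alternatives, at 0.92 to 1.18 on the log2 scale, passed the threshold in 11 and adjusted p in 13. *Dll1* lay between 0.66 and 1.37, with 7 and 12 of 15. These 15 do not include treat, under which neither gene passed. Directions near 0 reversed for *Notch1* with a library left out (−0.0060 without null library 1 to 0.19 without null library 2). *Jag1* turned positive with equal totals (0.010) and with quantile normalization (0.00024). *Hey1* turned positive with equal totals (0.0084). With a library left out, *Hey1* lay at −0.073 without null library 1, 0.032 without null library 2 and 0.0097 without WT library 2. Of the other pathway genes, the 1 past the threshold became 0 with a mean of at least 50 (where *Notch4* is no longer tested), quantile normalization, no trend, edgeR, DESeq2 and treat, and 0 to 1 with a library left out. By adjusted p alone the 4, *Dner* and *Ctbp2* among them, became 2 with equal totals, 2 with quantile normalization, 0 without the trend, 1 with DESeq2 and 0 to 3 with a library left out. Over all genes, the 550 past the threshold became 287 with a mean of at least 50, 181 without the trend, 171 with treat and 172 to 559 with a library left out. The 1028 by adjusted p alone became 187 without the trend, 661 with DESeq2 and 249 to 898 with a library left out, and with equal totals they split into 783 higher and 55 lower, beside 831 and 197. The cause of these changes was not tested, except that the filter on the mean tested fewer genes. A fit with 1 library left out assumes that the lone library varies like the other group.

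With the replicate number as a block, the Notch genes past the threshold stayed at 2, the same genes, and all genes past it numbered 591. The labels give both groups the numbers 1 and 2, and the deviations of the same-numbered libraries correlated at 0.01 over 14780 genes. That gives no sign of a pairing across the genes as a whole. A link limited to some genes could not be seen in this way.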

Other observations

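Because a Y-linked gene, *Eif2s3y*, stood among the profiles nearest to *Notch3*, other sex-linked genes were read after its values were seen. *Ddx3y* had 570.3 and 556 normalized reads in null and 505 and 347 in WT libraries, a log2 difference of 0.43 (adjusted p = 0.0143, limma). *Kdm5d* had 171 and 174 against 135 and 104, with 0.54 (adjusted p = 0.0513, limma), and *Uty* had 159 and 129 against 127 and 111, with 0.27 (adjusted p = 0.476, limma). *Xist*, which is expressed from the inactive X chromosome of females, had 4685 and 3307 against 3426 and 3784, so that every pool held RNA of both sexes and the groups overlapped. Both null libraries were above both WT libraries for *Ddx3y*, *Kdm5d* and *Uty*, as for 23.7% of all genes tested, and the place of *Eif2s3y* among the profiles nearest to *Notch3* fixed its own direction. Whether the share of males in the pools bears on the Notch genes was not tested.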
